A study of Oryza sativa with 10 samples.

Results

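Rice builds most of its root system from crown roots, which arise on the stem base and must be initiated, emerge and then keep an ordered meristem at their tip. CRL1 (Os03g0149100), CRL5 (Os07g0124700), OsWOX11 (Os07g0684900), QHB (Os01g0854500), OsSHR1 (Os07g0586900) and OsSCR1 (Os11g0124300) encode 6 transcription factors known for these steps. They were taken by locus identifier, as 6 of the 37869 loci in the table, and their levels were followed across the 5 groups of root RNA-Seq libraries. The values, in FPKM (fragments scaled to transcript length and to the number mapped in the library), were summed over the transcripts of a locus, and each of the 6 has 1 transcript. The file describes CRL1 as adventitious rootless1, CRL5 as similar to PLETHORA1, OsWOX11 as homeodomain-like, QHB as a homeobox protein, OsSHR1 as a GRAS domain protein and OsSCR1 as similar to SCARECROW.

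The 5 groups were non-transgenic roots (NT, japonica cultivar Illmi) and roots of plants carrying RCc3:6MYC-OsNAC5, -OsNAC6, -OsNAC9 or -OsNAC10, with 2 libraries each, 10 in all. NAC proteins are plant-specific transcription factors, and each transgene put a MYC-tagged OsNAC coding sequence behind RCc3, a promoter active in roots. The tag was N-terminal in OsNAC5 and OsNAC9 (myc-OsNAC5, myc-OsNAC9) and C-terminal in OsNAC6 and OsNAC10 (OsNAC6-myc, OsNAC10-myc), and NT plants carried no transgene. The labels give all roots as 20 days old, and the methods describe soil-grown seedlings submerged in water for the last 3 days, NT included. The transgenic plants came from lines selected for high tagged protein, and whether both libraries of a group came from a single line is not stated, so each comparison below is of the plant line sampled with NT. A whole root mixes many cell types, so fewer cells of a type and less RNA per cell cannot be told apart.

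CRL1 is a LOB-domain protein induced by auxin through an auxin response factor, and its loss removes nearly all crown roots. CRL5 is an AP2-domain protein of the PLETHORA/AINTEGUMENTA group that also acts after auxin and is known to raise type-A response regulators, which dampen cytokinin signalling. OsWOX11 is a WUSCHEL-related homeobox protein that promotes the emergence and growth of crown roots. QHB is the homeobox protein that marks the quiescent centre, the slowly dividing cells around which the stem cells of the root tip are arranged. SHORT-ROOT and SCARECROW are GRAS proteins that together pattern the ground tissue, the first moving from the stele into the next layer where it meets the second; that mechanism was worked out in Arabidopsis.

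QHB is the only member called against NT in the main comparisons below, which leave out CRL5, so the sequence next to it is shown first. A table that accompanies the study lists 2 regions at this locus recovered by chromatin immunoprecipitation, one in the promoter and one in an exon. That table was assembled in part from these RNA libraries, so the presence of QHB in it is no separate evidence for a change in its RNA. The gene lies on the minus strand of chromosome 1 at chr1:36813736-36815023 in IRGSP-1.0. The promoter region, chr1:36815958-36816130, lies 935 to 1107 bases upstream of the gene and is listed under an identifier that names a MYC antibody and OsNAC10-myc roots. The exon region, chr1:36814573-36814719, lies in the first exon and has an identifier that names RNA polymerase II (Pol2) and myc-OsNAC9 roots. Both are printed as the table lists them, with each start and end spanning 1 more position than the letters given. Capitals mark CACG or its reverse complement CGTG, the core of the sequence that NAC proteins recognise, searched on both strands.
QHB promoter region: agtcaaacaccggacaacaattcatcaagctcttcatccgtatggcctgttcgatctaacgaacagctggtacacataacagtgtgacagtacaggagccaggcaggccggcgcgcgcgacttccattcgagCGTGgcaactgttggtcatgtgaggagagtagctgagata
QHB exon region: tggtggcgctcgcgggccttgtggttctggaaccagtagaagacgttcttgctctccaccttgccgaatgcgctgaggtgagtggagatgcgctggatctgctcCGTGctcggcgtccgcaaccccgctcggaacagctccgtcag
The 172 bases of the promoter region hold 1 match, and so do the 146 bases of the exon region. Of 254 other regions of the table that are at least as long, trimmed about their centres to 172 bases, 63.8% hold a match. Over 146 bases the share is 54.4% of 454 regions. A match of 4 letters is therefore common among the regions read here.

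In every one of the 10 libraries the 6 genes kept the same order of FPKM, a scale already divided by transcript length. OsSHR1 was the highest, followed by OsWOX11, OsSCR1, CRL1, QHB and, near 0, CRL5. In NT roots the mean level was 13.3 FPKM for OsSHR1, 7.14 for OsWOX11, 3.68 for OsSCR1, 2.25 for CRL1 and 1.02 for QHB, and no neighbouring pair overlapped between the 2 NT libraries. In OsNAC10 roots the neighbours CRL1 and QHB did overlap, at 1.86 to 2.59 FPKM against 1.76 to 2.01.

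**Figure D1:**
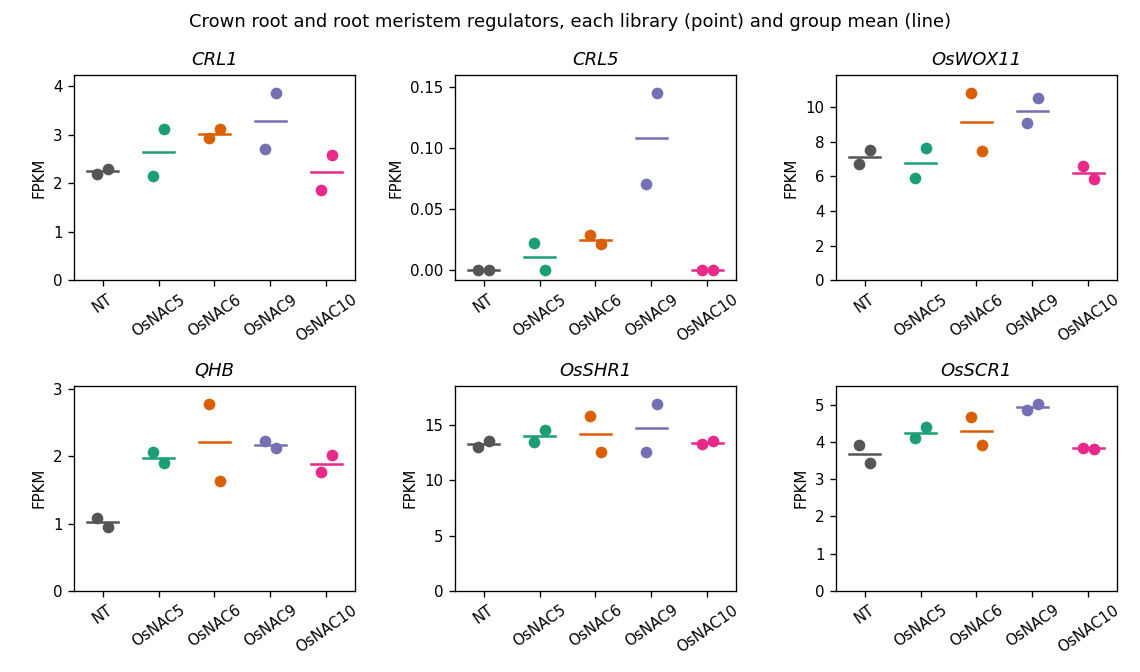
FPKM (vertical axis, from 0 and on a separate scale for each gene; the CRL5 axis starts just below 0 so that its zeros show) of the 6 genes in each of the 10 root libraries, by group. Points are libraries and short lines are group means of 2 libraries. For QHB all 8 transgenic libraries lie above both NT libraries, whereas for OsSHR1 the groups overlap.

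For the comparisons, log2(FPKM + 1) of the 29915 loci above 0 in all 10 libraries was fitted with limma, and 5 of the 6 genes passed that filter. CRL5 did not. A locus was called where p was under 0.05 and the difference at least 1.5-fold on that scale, which is 0.585 in log2 units. Adjusted p values are Benjamini-Hochberg values over all loci fitted. All 4 line comparisons share the 2 NT libraries. Of the 5 genes, 1 was called higher than NT in OsNAC6 and 1 in OsNAC9, QHB both times, and 0 in the other lines. The share of all fitted loci called higher was 2.39%, 5.81%, 5.06% and 5.04% for OsNAC5, 6, 9 and 10. None of the 5 genes was called lower in any line, against 3.28%, 7.6%, 5.55% and 10.4% of all loci in the same order. An unadjusted p under 0.05 was reached by 1, 1, 3 and 1 of the 5 genes, and by 20.6%, 38.1%, 33.1% and 40.9% of all loci.

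QHB, the marker of the quiescent centre, measured 1.08 and 0.954 FPKM in the NT libraries. OsNAC5 roots had 2.06 and 1.90 FPKM. OsNAC6 roots had 2.77 and 1.64 FPKM. The spread between the 2 OsNAC6 libraries was thus wider than in the other lines. OsNAC9 roots had 2.22 and 2.12 FPKM and OsNAC10 roots 1.76 and 2.01. The lowest transgenic library, 1.64 FPKM, was still above the higher NT library. A locus with all 8 transgenic libraries above both NT libraries was not rare, since 14.5% of all loci had that pattern.

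QHB rose in OsNAC6 by 0.65 ± 0.157 (SE) in log2(FPKM + 1), with an adjusted p of 0.019. In OsNAC9 it rose by 0.65 ± 0.157, with an adjusted p of 0.0235. In OsNAC5 the difference was 0.56 (95% interval 0.204 to 0.922, adjusted p = 0.0736) and in OsNAC10 it was 0.52 (0.158 to 0.876, adjusted p = 0.0394), both short of 1.5-fold on this scale. By the adjusted p alone, in this fit with its spread pooled over all 5 groups, QHB differed from NT in OsNAC6, OsNAC9 and OsNAC10. That criterion was met by 7.27%, 25.7%, 18.6% and 29.2% of all loci for OsNAC5, 6, 9 and 10. Fitted by limma on only the libraries of each pair, QHB had adjusted p of 0.0216, 0.0921, 0.0104 and 0.0111 in the same order. The SE was then 0.087 in OsNAC5 and 0.193 in OsNAC6, so OsNAC5 passed and OsNAC6 did not. With loci holding zeros kept in the pooled fit, the adjusted p was 0.13, 0.045, 0.053 and 0.079 in OsNAC5, 6, 9 and 10. Which lines passed by the adjusted p thus changed with the fit. The pooled fit also rested on having both NT libraries, since with either left out the SE rose from 0.157 to 0.207. Without 1 library of OsNAC9 or OsNAC10 the SE of that line rose to 0.204 or 0.202. Without 1 library of OsNAC6 its SE fell to 0.112 or 0.113. Without NT replicate 1 the differences in OsNAC6, OsNAC9 and OsNAC10 were 0.69, 0.70 and 0.56. Without NT replicate 2 they were 0.60, 0.61 and 0.47. The ratio of mean FPKM, with no constant added, was 1.95, 2.17, 2.13 and 1.86 for OsNAC5, 6, 9 and 10. Adding 1 before the logarithm shrinks differences of a gene near 1 FPKM, and with 0.1 added instead QHB was called in all 4 lines (0.90 in OsNAC5 and 0.83 in OsNAC10). Between lines, QHB differed by at most 0.14 in log2 units and no pair had an adjusted p under 0.62. The widest of those intervals reached -0.495, from OsNAC10 minus OsNAC9, so differences up to that size lie within the error.

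The OsNAC6 call rested on 1 library. Without OsNAC6 replicate 1 the QHB difference was 0.39, below 1.5-fold, with an adjusted p of 0.0447. In OsNAC5 the difference passed 1.5-fold without NT replicate 1, at 0.61, and without OsNAC5 replicate 2, at 0.60. Histone transcripts were also called higher, mostly in OsNAC6 and OsNAC9, while the few other loci of the dividing-cell list below were not called. A list of 40 loci was found by the words histone H3, histone H4, B-type cyclin, minichromosome maintenance (MCM) and proliferating cell nuclear antigen (PCNA) in the description of a transcript, and it also took in 2 histone acetyltransferases. It summed to 3428 and 3456 FPKM in NT and to between 3894 and 5792 FPKM in the 8 transgenic libraries. The OsNAC6 libraries lay far apart here as well, at 5792 FPKM in replicate 1 and 4347 in replicate 2. Of its 33 loci above 0 everywhere, 1, 15, 13 and 3 were called higher in OsNAC5, 6, 9 and 10, and 0 were called lower in any line. The median difference of the list was 0.24, 0.58, 0.52 and 0.27, beside 0.02, 0.01, 0.02 and 0.02 over all loci. All these calls fell on the 28 histone loci, of which 21 were fitted and which made up most of the sum. The 10 cyclin, MCM and PCNA loci summed to 198 and 209 FPKM in NT and 208 to 239 in the transgenic libraries, with 0 calls. The MCM locus among them was Os09g0539400, similar to MCM10, and most of the others were cyclins. PCNA alone had 94.9 and 87.8 FPKM in NT replicates 1 and 2, so these loci are a narrow sample of dividing-cell genes. When every library was scaled to the sum of this list, an alternative chosen after seeing the data, the QHB differences from NT were 0.43, 0.32, 0.36 and 0.36, with adjusted p from 0.0633 to 0.0885 and no call. Per 1000 FPKM of the list, QHB measured 0.313 and 0.278 in NT and 0.377 to 0.530 in the transgenic libraries, which still did not overlap. Scaled to the 10 cyclin, MCM and PCNA loci alone, also chosen after seeing the data, QHB differed by 0.51, 0.52, 0.63 and 0.47 (adjusted p of 0.0892, 0.0339, 0.023 and 0.0523) and was called in OsNAC9 alone. The part of dividing cells in the QHB difference was not tested further.

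**Figure D2:**
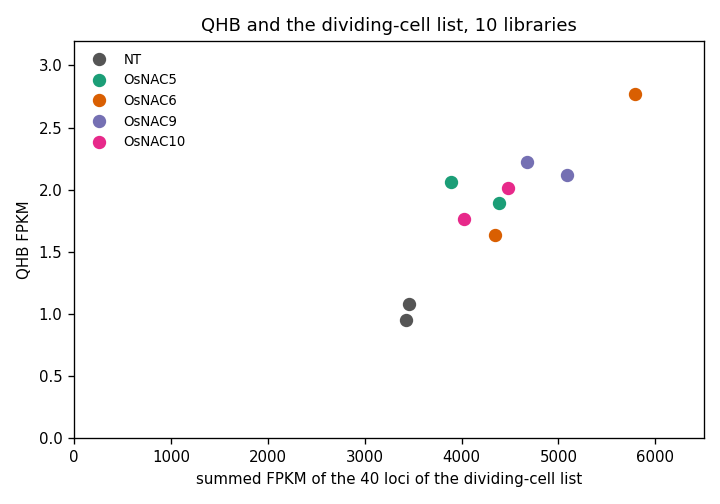
FPKM of QHB (vertical axis) against the summed FPKM of the 40 loci of the dividing-cell list, mostly histones (horizontal axis) in each of the 10 libraries, coloured by group. The NT libraries lie lowest on both axes, at 0.954 and 1.08 FPKM of QHB, and OsNAC6 replicate 1 highest, at 2.77 FPKM of QHB and 5792 FPKM of the list.

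CRL1, the auxin-induced initiator of crown roots, measured 2.19 and 2.30 FPKM in NT. OsNAC5 roots had 2.15 and 3.11 FPKM and overlapped NT. OsNAC6 roots, at 2.92 and 3.11 FPKM, and OsNAC9 roots, at 2.70 and 3.85, lay above both NT libraries. OsNAC10 roots had 1.86 and 2.59 FPKM, on either side of NT. None of the differences passed the test. The largest was 0.38 in OsNAC9 (SE 0.181, 95% interval -0.0295 to 0.798, adjusted p = 0.18), and in OsNAC10 it was -0.02. The OsNAC9 difference was 0.58 without OsNAC9 replicate 1 and 0.19 without OsNAC9 replicate 2. The sign in OsNAC10 turned with the scaling of the libraries, to 0.07 with median centring and 0.09 with quantile normalisation. Between OsNAC10 and OsNAC9 the difference was -0.40 (adjusted p = 0.185).

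CRL5, the AP2 partner of crown root initiation, was at the limit of detection. Both NT libraries, OsNAC5 replicate 2 and both OsNAC10 libraries were listed at 0. OsNAC5 replicate 1 had 0.0225 FPKM, OsNAC6 roots 0.0292 and 0.0211, and OsNAC9 roots 0.0708 and 0.145. The relative depth of each library can be read from the steps between low FPKM values, and it ranged from 0.921 to 1.56 times that of NT replicate 1. Multiplied by it, the CRL5 values were 1, 1, 1, 3 and 6 times a smallest step, as counts of single fragments would be. No fold can be given against a group listed at 0. In a fit that kept loci with zeros, CRL5 differed from NT in OsNAC9 by 0.15 in log2(FPKM + 1) (SE 0.0299, adjusted p = 0.0283), and from OsNAC10 by the same amount (adjusted p = 0.0353). With 1 added to values this low the size of that difference is set by the constant, and a 1.5-fold difference could not have been reached. All other comparisons of CRL5 had an adjusted p of at least 0.0864.

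OsWOX11, which promotes crown root emergence, measured 6.74 and 7.53 FPKM in NT. OsNAC9 roots, with 9.10 and 10.5 FPKM, lay above NT, and OsNAC6 roots had 1 library above it, at 10.8, and 1 within the NT range, at 7.45. OsNAC5 roots had 5.92 and 7.63 FPKM. OsNAC10 roots had 6.58 and 5.87 FPKM, both below NT. The difference from NT was 0.41 in OsNAC9 (SE 0.177, adjusted p = 0.148), -0.07 for OsNAC5, 0.30 for OsNAC6 and -0.17 for OsNAC10, and none was called. Its largest difference was between 2 lines. OsNAC10 stood at -0.58 relative to OsNAC9 (95% interval -0.986 to -0.174, adjusted p = 0.0665), just short of 1.5-fold. It was past 1.5-fold at -0.65 with 0.1 added in place of 1, and at -0.68 without OsNAC9 replicate 1 and -0.65 without OsNAC10 replicate 1, and was -0.49 at its smallest, without OsNAC9 replicate 2. The difference between OsNAC10 and OsNAC6 was -0.47 (adjusted p = 0.167), and was -0.71 without OsNAC6 replicate 2 and -0.23 without OsNAC6 replicate 1. The difference between OsNAC9 and OsNAC5 was 0.48 (adjusted p = 0.202), and was 0.64 without OsNAC5 replicate 2 and 0.32 without OsNAC5 replicate 1.

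OsSHR1, the SHORT-ROOT type GRAS factor, measured 13.0 and 13.5 FPKM in NT. The transgenic libraries ran from 12.6 to 16.9 FPKM around these values, with both extremes in OsNAC9. The differences from NT were 0.07, 0.08, 0.13 and 0.01 in OsNAC5, 6, 9 and 10 (SE 0.145, adjusted p from 0.594 to 0.953). The 95% intervals ran from -0.317 to 0.459 over the 4 lines, so a change of 1.5-fold lay outside them while smaller ones did not.

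OsSCR1, the SCARECROW partner, measured 3.92 and 3.43 FPKM in NT. In OsNAC9 roots both libraries, at 4.87 and 5.02 FPKM, lay above NT. OsNAC5 roots, at 4.10 and 4.41 FPKM, and OsNAC6 roots, at 4.67 and 3.93, lay above both NT libraries too, the last value only just. OsNAC10 roots had 3.85 and 3.83 FPKM, within the NT range. The difference from NT was 0.35 in OsNAC9 (SE 0.113, 95% interval 0.0892 to 0.605, adjusted p = 0.0666), 0.17 for OsNAC5, 0.18 for OsNAC6 and 0.05 for OsNAC10. No line passed the test. The difference between OsNAC10 and OsNAC9 was -0.30 (adjusted p = 0.124). A second SCARECROW gene, Os12g0122000 on chromosome 12, is a close copy of OsSCR1 on chromosome 11, and reads that fit both may have been assigned to either. It measured 4.71 and 4.50 FPKM in NT and 4.31 to 6.75 in the transgenic libraries, with differences of 0.17, 0.23, 0.35 and -0.05 and no call.

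**Figure D3:**
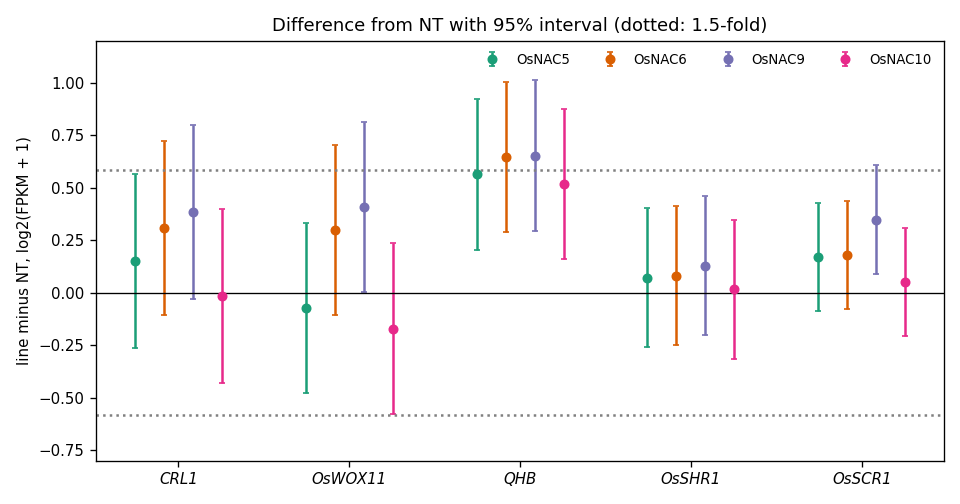
Difference from NT in log2(FPKM + 1) (vertical axis) for the 5 genes that passed the filter, with 95% intervals from the limma fit, coloured by line. Dotted lines mark 1.5-fold up and down. The 4 QHB intervals lie above 0, the lowest bound at 0.158, and most of the other intervals include 0.

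Set beside each other, the 5 genes had a positive difference from NT in 4, 5, 5 and 3 cases in OsNAC5, 6, 9 and 10. Their median was 0.15, 0.30, 0.38 and 0.01, against medians of 0.02, 0.01, 0.02 and 0.02 over all loci. Both libraries of a line lay above both NT libraries for 2, 3, 4 and 1 of the 5 genes. The share of all loci with that pattern was 32.7%, 31.6%, 34.9% and 39.3%. Between lines none of the 5 genes was called in any of the 6 pairs, while 4.54% of all loci were called between OsNAC6 and OsNAC5, 4.13% between OsNAC9 and OsNAC5, 9.53% between OsNAC10 and OsNAC5, 3.53% between OsNAC9 and OsNAC6, 6.07% between OsNAC10 and OsNAC6, and 9.53% between OsNAC10 and OsNAC9. Unadjusted, p was under 0.05 for 1 gene between OsNAC9 and OsNAC5, 1 between OsNAC10 and OsNAC6 and 2 between OsNAC10 and OsNAC9, named above, and for 17.2%, 22.5% and 28.7% of all loci in these pairs.

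Of 14 further loci around auxin and cytokinin response and ground tissue patterning, all passed the filter. In OsNAC5 1 was called higher and 0 lower, and in each of OsNAC6, OsNAC9 and OsNAC10 1 was called higher and 1 lower. These counts were not tested against the shares of all loci called, given above. The locus called higher in all 4 lines was Os03g0149000, similar to LOB domain protein 31, whose identifier stands next to that of CRL1. It had 14.2 and 14.9 FPKM in NT and 19.8 to 43.0 in the transgenic libraries, with differences of 0.61, 1.08, 0.59 and 0.64 and adjusted p of 0.186, 0.013, 0.124 and 0.076. A call higher in all 4 lines was made for 0.568% of all loci.

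A GNOM-like locus, Os03g0666100, a type of exchange factor that acts in vesicle traffic, differed by -0.07 to -0.19 and was not called.

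A locus similar to chromodomain helicase-DNA-binding proteins, Os07g0497100, fell in 3 lines. It had 4.95 and 5.30 FPKM in NT. OsNAC6 roots had 2.55 and 2.74 FPKM, OsNAC9 roots 2.63 and 2.67, and OsNAC10 roots 2.12 and 0.664. The differences were -0.75 (adjusted p = 0.055), -0.75 (adjusted p = 0.0684) and -1.43 (adjusted p = 0.00382), and in OsNAC5, at 3.03 and 3.52 FPKM, the difference of -0.52 was not called. All 8 transgenic libraries lay below both NT libraries, as they did for 14.6% of all loci.

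The cytokinin and auxin response loci of the list were not called. The type-A response regulator Os04g0442300 differed by -0.48 in OsNAC5 (adjusted p = 0.0269) and by -0.32, -0.25 and 0.02 in the other lines. A second one, Os02g0557800, had libraries from 0.296 to 3.03 FPKM in OsNAC6 alone. The Aux/IAA repressor Os03g0742900 had 255 and 248 FPKM in NT. It differed by 0.30 in OsNAC5 (adjusted p = 0.0751), -0.33 in OsNAC6 (adjusted p = 0.0246), -0.48 in OsNAC9 (adjusted p = 0.00687) and -0.0028 in OsNAC10. The IAA23-like Os06g0597000 differed by -0.38 in OsNAC10 (adjusted p = 0.0384) and by at most 0.11 in size in the other lines. The second SHORT-ROOT gene, Os03g0433200, differed by 0.23, 0.23, 0.24 and -0.03.

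**Figure D4:**
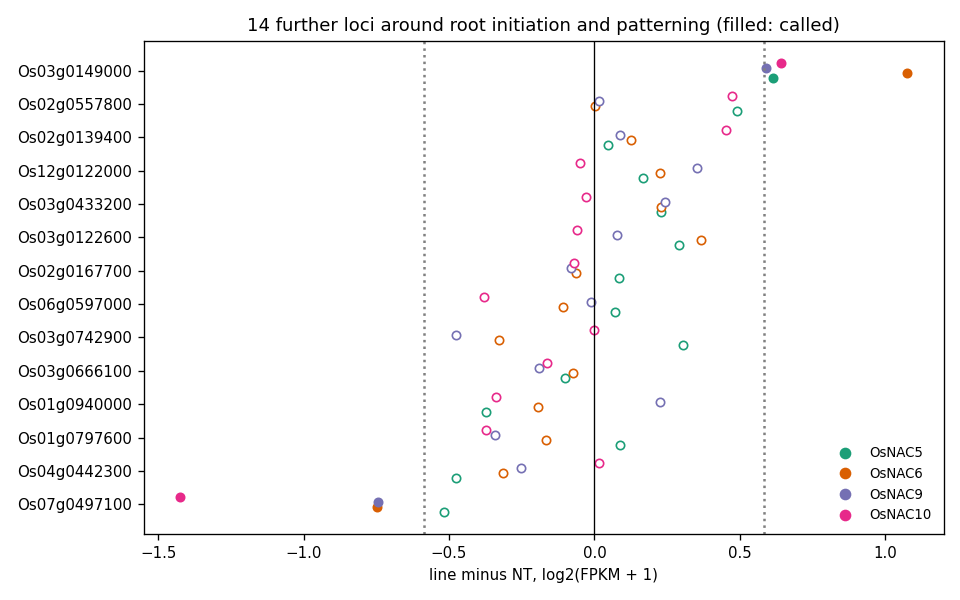
Difference from NT in log2(FPKM + 1) (horizontal axis) of the 14 further loci (rows, ordered by their mean difference) in the 4 lines (colours). Filled points were called and dotted lines mark 1.5-fold. Os03g0149000 is called higher in all 4 lines and Os07g0497100 lower in 3 lines.

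The gene families of the 6 regulators were found by words in the descriptions. Of all fitted loci, 2.39%, 5.81%, 5.06% and 5.04% were called higher in OsNAC5, 6, 9 and 10. The shares called lower were 3.28%, 7.6%, 5.55% and 10.4%. The family counts below were not tested against these shares. Of 26 LOB-domain loci 20 were fitted, CRL1 among them, and 1, 3, 1 and 2 were called higher and 2, 2, 1 and 4 lower in OsNAC5, 6, 9 and 10. Besides Os03g0149000, the locus called in all 4 lines was Os01g0511000, similar to LOB domain protein 40. It fell from 37.7 and 36.7 FPKM in NT to 18.6 to 23.3 in the transgenic libraries, with differences of -0.73 to -0.87 on the log2 scale (SE 0.0949, adjusted p from 0.000565 to 0.00159). A call lower in all 4 lines was made for 1.95% of all loci.

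Of 8 loci found by the words PLETHORA, AINTEGUMENTA, BABY BOOM or BBM, 7 were fitted. One of them, Os05g0400800, is described as an isomerase and matched only because BBM II is its other name. In OsNAC5, 6, 9 and 10, 1, 2, 1 and 0 were called higher and 1 each lower. The locus called in all 4 lines was Os08g0442400, similar to BABY BOOM, an AP2 protein of the same group as CRL5. It fell from 2.36 and 2.62 FPKM in NT to 0.179 to 0.403 in the transgenic libraries, with differences of -1.40 to -1.49 on the log2(FPKM + 1) scale (SE 0.102, adjusted p from 3.77e-05 to 6.34e-05). Another locus described as similar to BABY BOOM, Os03g0232200, was named after its values were seen. It had 1.29 and 1.20 FPKM in NT and 9.45 and 8.67 in OsNAC5. OsNAC6 roots had 3.95 and 3.85 FPKM, OsNAC9 roots 6.02 and 5.57, and OsNAC10 roots 1.41 and 1.52. It rose by 2.16, 1.13 and 1.60 in the first 3 lines (adjusted p of 5.26e-06, 0.000182 and 2.92e-05) and differed by 0.13 in OsNAC10 (adjusted p = 0.372). The lines themselves differed, OsNAC10 from OsNAC5 by -2.03 (adjusted p = 1.91e-05), from OsNAC6 by -0.995 (adjusted p = 0.00105) and from OsNAC9 by -1.47 (adjusted p = 5.92e-05).

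Of 47 GRAS loci 36 were fitted, OsSHR1 and OsSCR1 among them, and 1, 3, 2 and 0 were called higher and 1, 2, 2 and 2 lower. The locus called in all 4 lines was Os01g0881500, similar to Scarecrow-like 1. It had 50.5 and 30.6 FPKM in NT, and 9.60 to 20.3 in the transgenic libraries. It fell in each line, with differences of -1.06, -1.66, -1.45 and -1.57 (SE 0.310, adjusted p of 0.0863, 0.00641, 0.015 and 0.00733). Of 12 loci with WUSCHEL or WOX words, which find neither QHB nor OsWOX11, 1 was fitted, Os03g0325600, and it was not called.

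**Figure D5:**
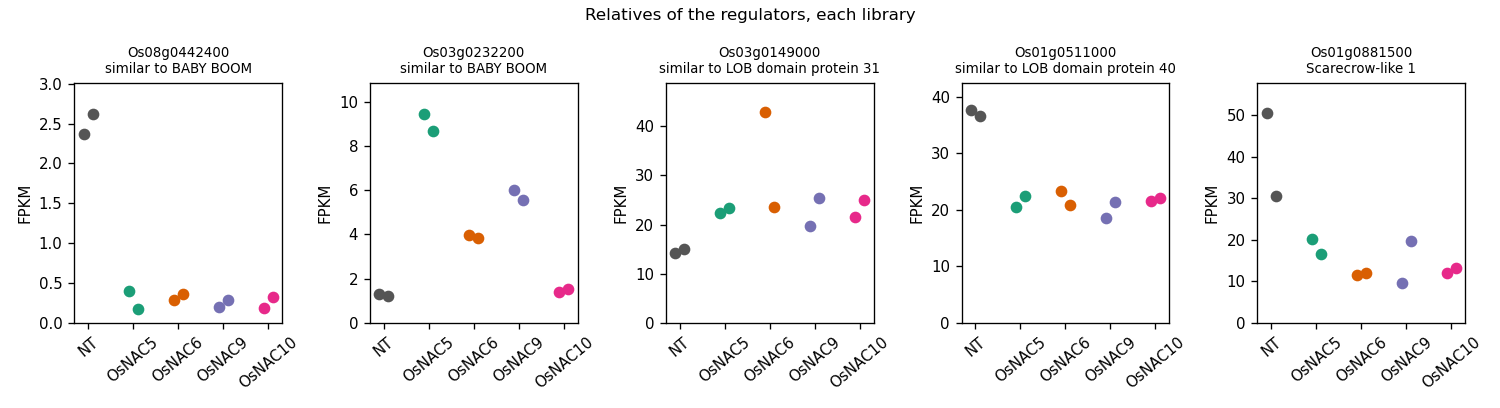
FPKM (vertical axis, from 0 and separate for each locus) in each of the 10 libraries, by group, of 5 relatives of the regulators. Os08g0442400 is at 2.36 and 2.62 FPKM in NT and at most 0.403 in the transgenic libraries, while Os03g0232200 is highest in OsNAC5 and in OsNAC10 lies at 1.41 and 1.52, close to the NT values of 1.29 and 1.20.

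The loci most like each regulator over the 10 libraries were searched among 24301 loci with a mean of at least 1 FPKM, by Pearson's r of log2(FPKM + 1). QHB was followed most closely by Os12g0111500, a BTB domain protein (r = 0.986), and Os09g0247500, a conserved hypothetical protein (r = 0.976). OsSCR1 was followed by Os05g0583600, similar to ovate (r = 0.974), and Os05g0153300, a lipase (r = 0.954). OsWOX11 was followed by Os07g0503900, a glycosyltransferase (r = 0.967), and Os02g0190000, uncharacterised (r = 0.962). For OsSHR1 they were Os10g0515200, a cytochrome P450 (r = 0.953), and Os08g0417100 (r = 0.935), and for CRL1 Os11g0182100, of unknown function (r = 0.944), and Os10g0155450, hypothetical (r = 0.936). These values are descriptions over 10 libraries in 5 groups, and the best of 24301 loci are high by selection. Among the 5 regulators themselves r ran from 0.412 (CRL1 and QHB) to 0.747 (OsWOX11 and OsSCR1).

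As a check of the labels, each OsNAC gene was highest in its own line, at 3.27 times the NT mean for OsNAC5, 1.3 for OsNAC6, 9.71 for OsNAC9 and 1.28 for OsNAC10. The gene that the RCc3 promoter comes from, a root marker, measured 1660 to 2667 FPKM in all libraries. Green tissue transcripts, 20 loci for chlorophyll-binding proteins and the small subunit of ribulose bisphosphate carboxylase, summed to 13.9 to 19.9 FPKM in all libraries, and of 11 fitted at most 1 was called in a line. The 2 libraries of a group correlated at 0.986 (OsNAC6) to 0.997 (NT). Total FPKM ran from 730218 to 789304 per library, and read counts are not in the table, so no counting interval is given.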

How the data were processed

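RNA was extracted from roots of NT plants and of the 4 RCc3:6MYC-OsNAC lines, and 2 libraries per group were sequenced. The authors trimmed the reads (adaptors, contaminants, duplicates and low-quality bases), aligned them with TopHat to IRGSP-1.0 with the RAP-DB annotation and deposited FPKM per transcript. Tool versions, the handling of reads with several matches and the use of strand in counting are not given in the sources used here. The 41635 transcripts were summed to 37869 loci, and both deposited copies of the table held the same values (0 differed).

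Loci above 0 in all 10 libraries (29915) were fitted as log2(FPKM + 1) with limma 3.58.1 in R 4.3.3, with all 5 groups sharing 1 estimate of the spread, an intensity trend and two-sided tests. A fold change on this scale understates the change of low genes. Calls needed p under 0.05 and 1.5-fold on this scale, thresholds that the study's results also use but with its own fold and test, and adjusted p values are Benjamini-Hochberg values over all loci. The fit was tested on simulated data. The text names the 6 regulators, the 14 further loci, the loci of each family called in all 4 lines (or else the 2 with the largest mean change among those called) and the 2 loci most correlated with each regulator. Some loci of that list are not reported here. The regulators and lists were chosen with earlier results of these data known. The libraries are described as 2 biological replicates, and p values rest on the spread within groups, pooled over all 5 groups. The groups were not equal in this spread, as the 2 libraries correlated at 0.986 in OsNAC6 and 0.997 in NT. Alternatives covered the constant added, the filter, scaling, a replicate block, the samples fitted, the variance prior, transcripts in place of loci, the thresholds and leaving out each library. Sequencing depth is known only relative to other libraries. Sequences at QHB came from a supplementary table held only in part, of which 456 regions were read.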

Additional observations from a re-analysis of the deposited data

Results flagged for a closer look

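CRL5 had values outside the comparisons, since its zeros kept it out of the fit. Both OsNAC6 libraries were above 0 although both NT libraries were listed at 0, and the lower of them had 0.0211 FPKM. Both OsNAC9 libraries were above 0 as well, and the lower had 0.0708 FPKM. These values stand for 1 step of the smallest size in each OsNAC6 library and for 3 and 6 steps in the OsNAC9 libraries, at relative depths of 0.921, 1.28, 1.14 and 1.11, while NT replicate 2 was listed at 0 at a relative depth of 1.56. The share of all loci at 0 in both NT libraries and above 0 in both libraries of a line was not counted, so how common this pattern is remains unknown.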

How the results depend on the processing

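Apart from leaving out libraries, 285 of the recomputed values were classed as unchanged. For a difference this meant the same direction and the same side of the threshold. For a count of loci or regulators called it meant only a similar count, such as 6770 beside 4608 loci in OsNAC10 with 0.1 added. The others were 17 counts that moved, 5 differences that passed 1.5-fold, 3 that fell below it and 2 that turned sign. With 0.1 added in place of 1, QHB was called in OsNAC5 (0.90) and OsNAC10 (0.83), each giving 1 regulator called. OsWOX11 in OsNAC10 against OsNAC9 then reached -0.65, and the loci called numbered 2902, 6068, 4940 and 6770 in OsNAC5, 6, 9 and 10. With median centring QHB was called in OsNAC10 (0.60, 1 regulator) and CRL1 there turned to 0.069. With quantile normalisation these were 0.63 (1 regulator) and 0.088. Median centring moved the median of all loci in OsNAC10 from 0.02 to 0.11, and the share of calls that were higher from 32.7% to 47.9%, and in OsNAC6 from 43.3% to 51.4%. A fold threshold of 2 left 616, 1098, 936 and 1495 loci called in OsNAC5, 6, 9 and 10, and 0 regulators in OsNAC6 and OsNAC9. By adjusted p with no fold threshold 7694, 5568 and 8736 loci were called in OsNAC6, 9 and 10, and 1 regulator in OsNAC10. Scaled to the dividing-cell list, QHB differed by 0.32 in OsNAC6 and 0.36 in OsNAC9, with no call, and scaled to its cyclin, MCM and PCNA loci by 0.52 in OsNAC6, with no call there. The causes were not tested.

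Leaving out each library in turn, the lone library of its group being assumed to vary like the others, gave QHB differences of 0.52 to 0.61 in OsNAC5 (0 to 1 regulators called) and 0.39 to 0.90 in OsNAC6 (0 to 1 called). OsWOX11 ran from 0.32 to 0.64 in OsNAC9 against OsNAC5, from -0.71 to -0.23 in OsNAC10 against OsNAC6 and from -0.68 to -0.49 in OsNAC10 against OsNAC9. Differences near 0 turned sign. Those of CRL1 ran from -0.041 to 0.34 in OsNAC5 and -0.18 to 0.14 in OsNAC10, of OsWOX11 from -0.23 to 0.086 in OsNAC5, of OsSCR1 from -0.025 to 0.13 in OsNAC10, and of OsSHR1 from -0.073 to 0.23 in OsNAC6, -0.070 to 0.32 in OsNAC9 and -0.012 to 0.042 in OsNAC10.

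Deviations of same-numbered libraries correlated at -0.517 to 0.331 over the 10 pairs of groups. Whether the replicate numbers pair the samples was not tested further. CRL1 was higher in replicate 2 than in replicate 1 in all 5 groups. With a replicate block in the limma fit its SE fell from 0.181 to 0.133. Its adjusted p in OsNAC9 fell from 0.18 to 0.0964, with no call. The SE of QHB fell from 0.157 to 0.153, and those of OsWOX11, OsSHR1 and OsSCR1 rose to 0.191, 0.153 and 0.120. With a replicate block the QHB difference stayed at 0.65 in OsNAC6 and OsNAC9, and 1688, 3989, 3152 and 4600 loci were called in OsNAC5, 6, 9 and 10. The SE of a regulator's difference, 0.113 to 0.181, limits what 2 libraries a group can resolve.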

Other observations

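Other members of the same gene families differed between the lines, and these loci were picked after their values were seen. A GRAS locus, Os11g0139600, had 0.0674 and 0.0627 FPKM in NT, and rose in OsNAC5 (0.660 and 0.725), OsNAC6 (1.26 and 0.622) and OsNAC9 (1.64 and 2.14), by 0.67, 0.85 and 1.43 on the log2(FPKM + 1) scale. In OsNAC10 it had 0.0711 and 0.0361 FPKM, and OsNAC10 differed from OsNAC9 by -1.45 in the limma fit (adjusted p = 0.000465), from OsNAC6 by -0.86 (adjusted p = 0.0113) and from OsNAC5 by -0.68 (adjusted p = 0.0184). Another GRAS locus, Os12g0162700, rose in OsNAC6 by 1.02, to 1.69 and 1.18 FPKM from 0.121 and 0.265 in NT. Its level in OsNAC6 was higher than in OsNAC5, OsNAC9 and OsNAC10, and OsNAC10 differed from OsNAC6 by -1.14 (adjusted p = 0.000564).

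A LOB-domain locus, Os03g0609500, similar to LOB domain protein 39, had 44.9 and 45.0 FPKM in NT. It fell in OsNAC5 to 20.8 and 24.6 FPKM and in OsNAC10 to 22.0 and 21.8. In OsNAC6, at 40.6 and 33.5 FPKM, and OsNAC9, at 32.1 and 38.5, it was not called. OsNAC10 differed from OsNAC6 by -0.72 (adjusted p = 0.0121) and from OsNAC9 by -0.66 (adjusted p = 0.0106), whereas OsNAC10 and OsNAC5 differed by -0.04 (adjusted p = 0.86).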
